A study of Mus musculus with 6 samples.

Results

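The 35 genes described here encode proteins that copy DNA or control entry into S phase, and were taken from a fixed list by gene symbol, each through its brightest probe set (highest mean over 6 arrays). Of these 35 genes, 34 were measured and tested among 10916 genes with a signal above a filter on dim genes, out of 18193 genes with a probe set, and Chaf1a was matched to no probe set here and was not analysed. RNA came from the pro-B line Ba/F3 of the mouse, which needs interleukin 3 to grow, carrying NCOR1-LYN, a fusion of a nuclear receptor corepressor with a SRC family tyrosine kinase, under a retroviral doxycycline-inducible system (Retro-X Tet-on Advanced). Cells given doxycycline, labelled as expressing NCOR1-LYN (3 arrays), were set against cells of the same line without doxycycline, labelled as control (3 arrays), and whether the line was 1 clone is not given in the sources used here. Only the NCOR1-LYN cells received doxycycline, so drug and fusion protein cannot be told apart, and induction of the fusion was not checked here. Nothing in the labels says how far the triplicate cultures were independent, and p-values measure only the spread between these arrays.

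Copying of the genome starts at origins marked by the origin recognition complex, where CDC6 and CDT1 load the ring-shaped MCM helicase during G1. Cyclin E with CDK2 and the kinase CDC7 then let CDC45 and the GINS complex join the ring, after which DNA polymerases, the sliding clamp PCNA and its loader RFC duplicate both strands while ribonucleotide reductase and thymidylate enzymes supply nucleotides. Most of these genes are known targets of E2F transcription factors, which the RB family restrains until cyclin-dependent kinases release them, so that their mRNAs rise together late in G1 in dividing cells. Because the arrays read RNA pooled from whole cultures, fewer cells in S phase and less of these mRNAs per cell cannot be told apart.

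The series as a whole set the scale for these genes as follows. Median signals of the 6 arrays lay between 54.8 and 61.9 after the scaling of each array to a trimmed mean of 500, and with 6 arrays their number sets the precision. Of 11 measured B lineage markers, 7 lay below the filter on dim genes (Cd79a, Ebf1, Rag1, Rag2, Vpreb1, Blnk and Ms4a1), and the summed signal of the list was 760 to 843 in NCOR1-LYN cells and 772 to 1006 in control cells. Replicate 1 stood apart in both groups: the deviation of an array from its group mean correlated at 0.62 across genes between NCOR1-LYN 1 and control 1. The replicate number is the only label on this split, and each result is therefore given by same-numbered pair and for replicate 1 against replicates 2 and 3.

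Promoter sequence gives a description of the members outside the arrays. RefSeq promoters (GRCm38.p6, 250 bases before to 50 after each start) were found for 30 of the 35 genes, and 12 of their 35 promoters (34.3%) held an E2F word, against 2.26% of all 32851 promoters. The words searched, on both strands and with overlaps counted, were TTTCCCGC, TTTCGCGC, TTTGCCGC and TTTGGCGC. Promoters of G2/M and mitosis genes held such a word in 4% of 25 cases and promoters of other replication genes in 26.7% of 30. The share was 29.6% of 27 promoters of G1/S regulators and 26.7% of 15 of nucleotide and chromatin genes of S phase. A match is a description of these letters and not a bound site. The stretches below show upstream bases of 6 members with an E2F word in capitals, 4 of them lower in replicate 1 (Mcm5, Cdc6, Pola1 and Rfc3) and 2 that did not pass there (Mcm6 and Orc1). The Mcm6 stretch lies at chr1:128359720-128359840 (minus strand, bases −135 to −15) and that of Orc1 at chr4:108579402-108579453 (plus strand, bases −52 to −1). Mcm5 is shown at chr8:75109331-75109392 (plus strand, bases −178 to −117), Cdc6 at chr11:98907988-98908045 (plus strand, bases −163 to −106), Pola1 at chrX:93632261-93632318 (minus strand, bases −163 to −106) and Rfc3 at chr5:151651209-151651243 (minus strand, bases −35 to −1).
Mcm6: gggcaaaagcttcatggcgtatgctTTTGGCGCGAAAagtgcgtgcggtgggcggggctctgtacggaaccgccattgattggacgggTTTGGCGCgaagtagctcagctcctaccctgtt
Orc1: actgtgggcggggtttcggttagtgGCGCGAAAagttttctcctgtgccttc
Mcm5: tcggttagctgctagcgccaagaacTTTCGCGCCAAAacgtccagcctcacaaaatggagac
Cdc6: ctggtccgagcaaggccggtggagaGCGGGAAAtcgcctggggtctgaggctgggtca
Pola1: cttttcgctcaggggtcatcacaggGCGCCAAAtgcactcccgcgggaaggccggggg
Rfc3: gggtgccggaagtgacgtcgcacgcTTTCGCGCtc
In Mcm5 and at the distal site of Mcm6 words of both strands overlap, so that the capitals there run past the length of a single word.

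Orc6 and Rrm2, the members with the largest difference between replicate 1 and the others, held no E2F word in this window, which says only that these letters are not in it. Both held CCAAT, the box read by NF-Y, which was searched on both strands as the letters CCAAT. The box was present in 54.3% of the members' promoters and in 37.4% of all promoters. Its share was 80% in promoters of G2/M and mitosis genes and 60% in those of nucleotide and chromatin genes of S phase. Promoters of other replication genes held it in 50% of cases and those of G1/S regulators in 48.1%. Orc6 is shown at chr8:85299553-85299607 (plus strand, bases −79 to −25) and Rrm2 at chr12:24708179-24708233 (plus strand, bases −75 to −21), with the box in capitals.
Orc6: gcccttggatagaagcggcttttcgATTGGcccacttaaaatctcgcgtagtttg
Rrm2: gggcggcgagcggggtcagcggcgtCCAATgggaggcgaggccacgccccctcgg
Among the members lower in replicate 1, 8 of 15 genes with a promoter held an E2F word and 7 of 15 a CCAAT box, and among those that did not pass 4 and 9 of 14 did, Chaf1a being the remaining gene. These counts are given as a description and were not tested.

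NCOR1-LYN cells were compared with control cells to ask whether induction of the fusion shifted the replication programme. None of the 34 genes passed the threshold (adjusted p of 0.05, limma with Benjamini-Hochberg adjustment over all genes), where 0.0824% of all 10916 genes did, and 1 of the 34 had an unadjusted p under 0.05. With the replicate number as a block, 0 of 34 passed as well, against 0.824% of all genes. The median log2 fold change of the 34 genes was 0.06, against −0.01 over all genes tested, with members between −0.15 (Fen1) and 0.41 (Tyms). Fold changes are on the scale of log2(signal + 64), which understates the change of dim genes. In the fit without the block, the 95% intervals of all 34 log2 fold changes lay between −0.84 (Rrm2) and 0.98 (Orc6). Differences inside these intervals were not resolved. With the block, the interval was −0.38 to 0.37 for Rrm2 and −0.21 to 0.50 for Orc6.

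Tyms, which encodes the thymidylate synthase that makes the DNA-specific nucleotide, had the largest difference of the list and no overlap between groups. Its signals were 330, 267 and 267 in NCOR1-LYN replicates 1, 2 and 3, against 228, 184 and 189 in control replicates 1, 2 and 3. All NCOR1-LYN arrays lay above all control arrays, by 0.43, 0.42 and 0.39 on the log2 scale in pairs 1, 2 and 3. The log2 fold change was 0.41 ± 0.15 (SE), with a 95% interval of 0.05 to 0.77, and did not pass over all genes (limma adjusted p = 0.929). This probe set was dim, and the next of the gene, with a mean signal of 111, had 0.14. Mcm2, a subunit of the helicase ring, had signals of 4389, 3953 and 4087 in NCOR1-LYN cells, against 3332, 3827 and 3882 in control cells. Its groups did not overlap either, and its log2 fold change was 0.17 ± 0.12 with an adjusted p of 0.999 in limma, while a second probe set of like brightness (mean signal 3722) had 0.01. Mcm10, which helps to activate the loaded helicase, gave 1676 ± 35.9 in NCOR1-LYN cells and 1548 ± 80.8 in control cells (SD, n = 3), also without overlap and with a log2 fold change of 0.11 ± 0.11, whereas its dimmer probe sets had −0.14 (mean signal 151) and −0.16 (mean signal 120), and the mean of all its probe sets −0.06. These 3 genes are 8.82% of the 34, near the 5.17% of all genes whose NCOR1-LYN arrays all lay above control, and 0 members lay wholly below control, against 6.06% of all genes.

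Direction within same-numbered pairs differed between the first pair and the others. In the replicate 1 pair 30 of 34 genes were higher with NCOR1-LYN (median log2 difference 0.23), whereas 13 were higher in pair 2 (median −0.04) and 14 in pair 3 (median −0.03). Of all 10916 genes, 5067, 5136 and 5618 were higher in pairs 1, 2 and 3, with medians of −0.03, −0.02 and 0.01. Of 29 G2/M and mitosis genes, 22, 5 and 10 were higher in the same order. Higher in all 3 pairs were 6 members (Mcm2, Mcm4, Mcm10, Gins1, Pole and Tyms), which is 17.6% against 15.9% of all genes, and lower in all 3 pairs was 1 (Pola2), which is 2.94% against 18.9%. The plot of pair differences shows the first pair to the right of the others for most genes.

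**Figure D1:**
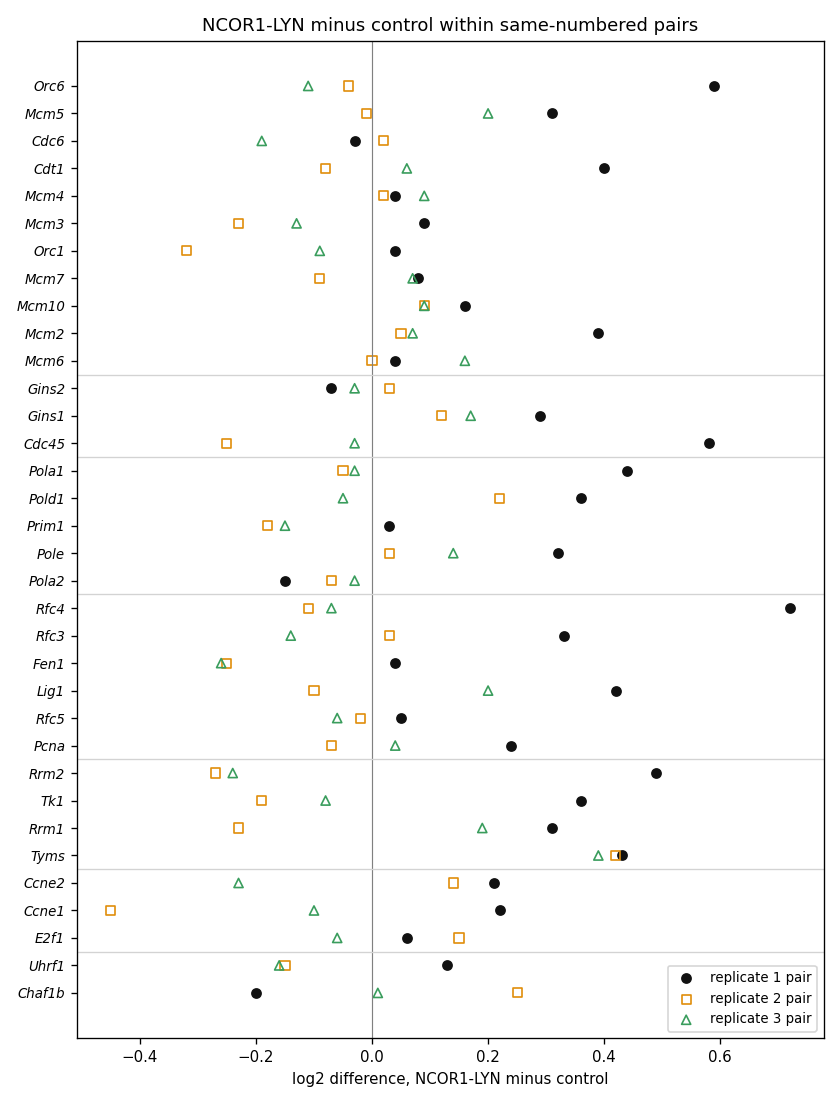
Log2 difference of NCOR1-LYN minus control (x axis) for each of the 34 genes (y axis, grouped by role with grey lines), 1 point per same-numbered pair. The black points of pair 1 lie right of 0 for 30 genes, reaching 0.72 for Rfc4, while pairs 2 and 3 lie on both sides of 0, and Tyms is at 0.39 to 0.43 in all 3 pairs.

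Without both replicate 1 arrays, which left 2 arrays in each group, 2 of the 34 genes fell with NCOR1-LYN (5.88%, against 3.62% of all genes) and 0 rose (against 3.16%), a share near that of all genes. Rrm2, the regulated small subunit of ribonucleotide reductase, had signals of 7994 and 8025 in NCOR1-LYN replicates 2 and 3, against 9644 and 9506 in control replicates 2 and 3. Its log2 fold change there was −0.26 ± 0.06 (limma adjusted p = 0.0283), and its other bright probe sets had −0.21 and −0.16. Fen1, the flap endonuclease that trims Okazaki fragments, had 3782 and 3824 in NCOR1-LYN replicates 2 and 3, against 4500 and 4593 in control replicates 2 and 3, a log2 fold change of −0.25 ± 0.06 (limma adjusted p = 0.0335), with −0.14 in its second probe set. Over the 16 alternatives tried for each gene the adjusted p ran from 0.0283 to 1 for Rrm2 and from 0.0335 to 1 for Fen1, and this was the only one in which either passed. With all arrays their log2 fold changes were −0.01 ± 0.36 and −0.15 ± 0.19.

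The second comparison set replicate 1 against replicates 2 and 3, averaged over both groups, in a fit with the group as covariate. It was chosen because replicate 1 was already known to lie apart, so its p-values describe these arrays and are not independent evidence of a split. In replicate 1, 19 of 34 genes were lower and 0 higher (limma, adjusted p of 0.05), that is 55.9% lower, where 15.0% of all genes were lower and 19.4% higher. The median log2 difference was −0.35, against 0.04 over all genes tested, whose 25th and 75th percentiles were −0.21 and 0.30. On signals alone, both replicate 1 arrays lay below the other 4 arrays for 22 of 34 genes (64.7%, against 21.4% of all genes). Adjusted p of the 19 genes ran from 0.00101 (Gins1) to 0.0401 (Lig1).

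**Figure D2:**
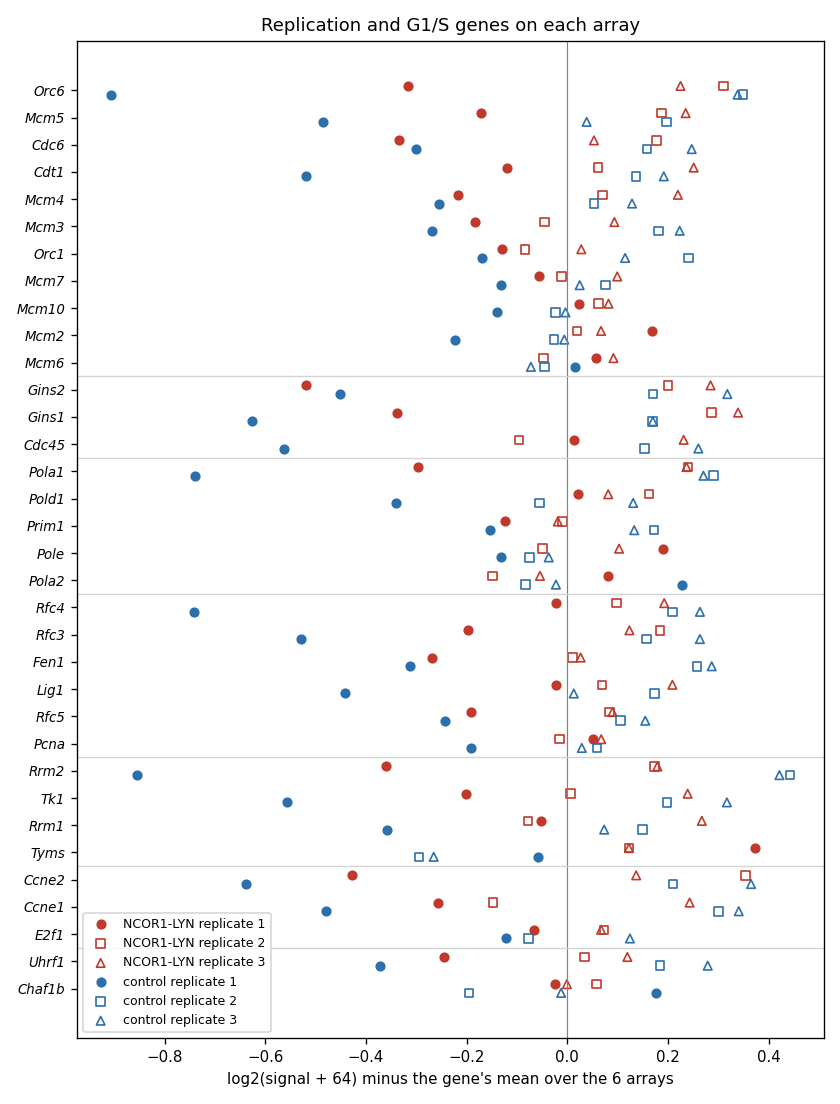
Value of each of the 34 genes (y axis, grouped by role) on each of the 6 arrays, as log2(signal + 64) minus the gene's mean over the arrays (x axis), NCOR1-LYN in red and control in blue, replicate 1 filled. For 22 genes both filled points lie left of the open ones, and Tyms and Pola2 are among the exceptions.

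Among the 11 genes of origin recognition and licensing, 6 were lower in replicate 1 (Orc6, Mcm5, Cdt1, Cdc6, Mcm4 and Mcm3) and 5 did not pass. Of all genes 15.0% were lower. Orc6, the smallest subunit of the origin recognition complex, had signals of 1900, 2968 and 2793 in NCOR1-LYN replicates 1, 2 and 3, against 1240, 3049 and 3027 in control replicates 1, 2 and 3. Both replicate 1 arrays lay below the other 4, and the log2 difference of replicate 1 was −0.92 ± 0.14 (SE, adjusted p = 0.00257 in limma). Cdc6, the loader that recruits the helicase, had 1284, 1859 and 1700 in NCOR1-LYN replicates 1, 2 and 3, against 1316, 1834 and 1954 in control replicates, a log2 difference of −0.48 ± 0.09. Cdt1, its partner in loading, which is destroyed once S phase begins, had 8464, 9605 and 10970 in NCOR1-LYN replicates, against 6405, 10129 and 10525 in control replicates, also a log2 difference of −0.48. In both genes the replicate 1 arrays were the lowest of the 6. Orc1, the largest subunit of the origin complex, had −0.23 ± 0.11 and did not pass (adjusted p = 0.161 in limma).

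The helicase subunits did not move alike, and part of that spread lay between probe sets of 1 gene. Mcm5 had signals of 9381, 12049 and 12461 in NCOR1-LYN replicates 1, 2 and 3, against 7535, 12139 and 10865 in control replicates, with a log2 difference of −0.49 ± 0.09 in replicate 1, but a second probe set with a mean signal of 3915 had −0.12. Mcm3 and Mcm4 had −0.34 ± 0.09 and −0.35 ± 0.08. Mcm2 (−0.04) and Mcm7 (−0.14) did not pass. Neither did Mcm10 (−0.09), which helps to activate the loaded helicase and is not counted as a subunit here. Mcm6 had nearly level signals of 10559, 9822 and 10819 in NCOR1-LYN replicates, against 10263, 9834 and 9650 in control replicates, a log2 difference of 0.05 ± 0.07, whereas its second probe set (mean signal 6440) had −0.85. When all probe sets of a gene were averaged, Mcm6 therefore turned and was called lower in replicate 1 (−0.29, adjusted p = 0.0271 in limma). With quantile normalization between arrays it was called higher instead (0.20, adjusted p = 0.0419 in limma). Over the 13 alternatives the adjusted p of Mcm6 ran from 0.0271 to 0.817. The second probe set of Mcm4 likewise had −0.95 against −0.35 in the brightest. The second probe sets of Mcm6 and Mcm4 carry the x_at suffix, as does the brightest of Mcm5. That suffix marks probes that may also match other sequences. For these subunits the size of the difference depended on which probe set was read.

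Of the genes that complete the active helicase, Gins1 and Gins2, which encode subunits of GINS, were lower in replicate 1. Gins1 had signals of 959, 1512 and 1571 in NCOR1-LYN replicates 1, 2 and 3, against 773, 1389 and 1390 in control replicates, and Gins2 had 769, 1308 and 1391, against 809, 1280 and 1425. The replicate 1 arrays were the lowest in both genes and in both groups. Their log2 differences were −0.72 ± 0.09 and −0.73 ± 0.09, and the ratio of replicate 1 to the mean of replicates 2 and 3 was 0.622 in NCOR1-LYN cells and 0.556 in control cells for Gins1. The other GINS subunit genes, which are not among the 35, had −0.33 ± 0.10 (Gins4, adjusted p = 0.0318 in limma) and −0.20 ± 0.15 (Gins3, adjusted p = 0.346, not passing). Cdc45, the subunit that joins with GINS, had 1072, 989 and 1257 in NCOR1-LYN replicates, against 698, 1188 and 1284 in control replicates, and did not pass (−0.41 ± 0.17, adjusted p = 0.0985 in limma). Its replicate 1 array was low in control cells and within the other arrays in NCOR1-LYN cells.

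At the fork, 1 of the 5 polymerase and primase genes was lower in replicate 1, near the 15.0% of all genes that were lower. Of the 6 clamp, loader and ligation genes 5 were lower. Pola1, the catalytic subunit of the polymerase that starts each strand, had signals of 2074, 3038 and 3032 in NCOR1-LYN replicates 1, 2 and 3, against 1509, 3150 and 3105 in control replicates, with a log2 difference of −0.78 ± 0.11. Pola2, the accessory subunit of the same enzyme, was highest in replicate 1 of both groups (1620, 1372 and 1469 in NCOR1-LYN replicates, against 1799, 1439 and 1503 in control replicates) and did not pass (0.23 ± 0.08, adjusted p = 0.0676 in limma). The 2 subunits thus stood on opposite sides of 0. Prim1, the primase, had −0.21, and the leading and lagging strand polymerases Pole and Pold1 had 0.04 and −0.24, all short of the threshold. Rfc3, Rfc4 and Rfc5, subunits of the clamp loader, had log2 differences of −0.55 ± 0.11, −0.57 ± 0.16 and −0.33 ± 0.07 and all passed. The call of Rfc4 held in 6 of 13 alternatives, and without control 1 its value was −0.17 (adjusted p = 0.133 in limma). Of the other loader subunit genes, outside the 35, Rfc1 was lower (−0.36 ± 0.09), and Rfc2 stood on the other side of 0 without passing (0.48 ± 0.18, adjusted p = 0.0776 in limma), with replicate 1 differences of 0.03 within NCOR1-LYN cells and 0.93 within control cells. Pcna, the clamp itself, had a bright signal of 20228 ± 614 in NCOR1-LYN cells and 19334 ± 1788 in control cells (SD, n = 3) and a replicate 1 difference of −0.10 that did not pass. The ligase gene Lig1 and the nuclease gene Fen1 were lower in replicate 1 (−0.35 ± 0.11 and −0.44 ± 0.09), though the second probe set of Fen1 (mean signal 2740) had 0.04. The call of Lig1 held in 5 of 13 alternatives, and without control 1 its value was −0.16 (adjusted p = 0.219 in limma).

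Nucleotide supply had 2 of 4 genes lower in replicate 1 and G1/S control 2 of 3, where 15.0% of all genes were lower. Rrm2 had signals of 5502, 7994 and 8025 in NCOR1-LYN replicates 1, 2 and 3, against 3886, 9644 and 9506 in control replicates, with a log2 difference of −0.91 ± 0.15, and its other bright probe sets had −0.97 and −0.82. Both replicate 1 arrays were below the rest, and more so in control cells. Tk1, the thymidine kinase of the salvage route, had −0.57 ± 0.13. Rrm1, the constant large subunit of the reductase, did not pass (−0.31 ± 0.12, adjusted p = 0.079 in limma), and neither did Tyms, whose replicate 1 array was the highest of its group in both groups (0.24 ± 0.12). The cyclin E genes, which partner CDK2 at the start of S phase, both passed. Ccne2 had 839, 1489 and 1272 in NCOR1-LYN replicates, against 717, 1342 and 1501 in control replicates, a log2 difference of −0.80 ± 0.11, and Ccne1 had −0.55 ± 0.15. E2f1, which encodes an activating E2F factor, did not pass (−0.14 ± 0.10).

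Of the genes that copy chromatin with the DNA, Uhrf1, which brings the maintenance methyltransferase to new DNA, was lower in replicate 1 (−0.46 ± 0.09), while its second probe set (mean signal 1099) had 0.13. Chaf1b, a subunit of the histone chaperone CAF-1, did not pass (0.11 ± 0.11). The brightest probe sets of Mcm5, Pold1, Fen1, Rrm2 and Ccne1 carry the x_at suffix, which marks probes that may also match other sequences. Across the list, 12 of the 19 lower genes had a second probe set above the filter, and in 10 of them it pointed the same way, Fen1 and Uhrf1 being the others. In each of 13 alternatives 9 genes remained lower past the threshold (Cdc6, Gins1, Gins2, Orc6, Rfc3, Pola1, Rrm2, Tk1 and Ccne2), and all 19 stayed below 0 in every one. The calls of Mcm3, Rfc4, Lig1 and Ccne1 were lost without control 1, and also without each of NCOR1-LYN 3, control 2 and control 3. Without control 1, Mcm3 had −0.21 and Ccne1 −0.31, while Orc6 (−0.58), Cdt1 (−0.28), Rfc3 (−0.35), Fen1 (−0.29), Rrm2 (−0.54) and Tk1 (−0.32) were nearer to 0 than with all arrays and still passed. The count was 13 without control 3 and 26 without NCOR1-LYN 1, of which 1 (Pola2) was higher. Quantile normalization gave 16 lower and 1 higher (Mcm6), and the mean of all probe sets 16 lower and 1 higher (Pola2).

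**Figure D3:**
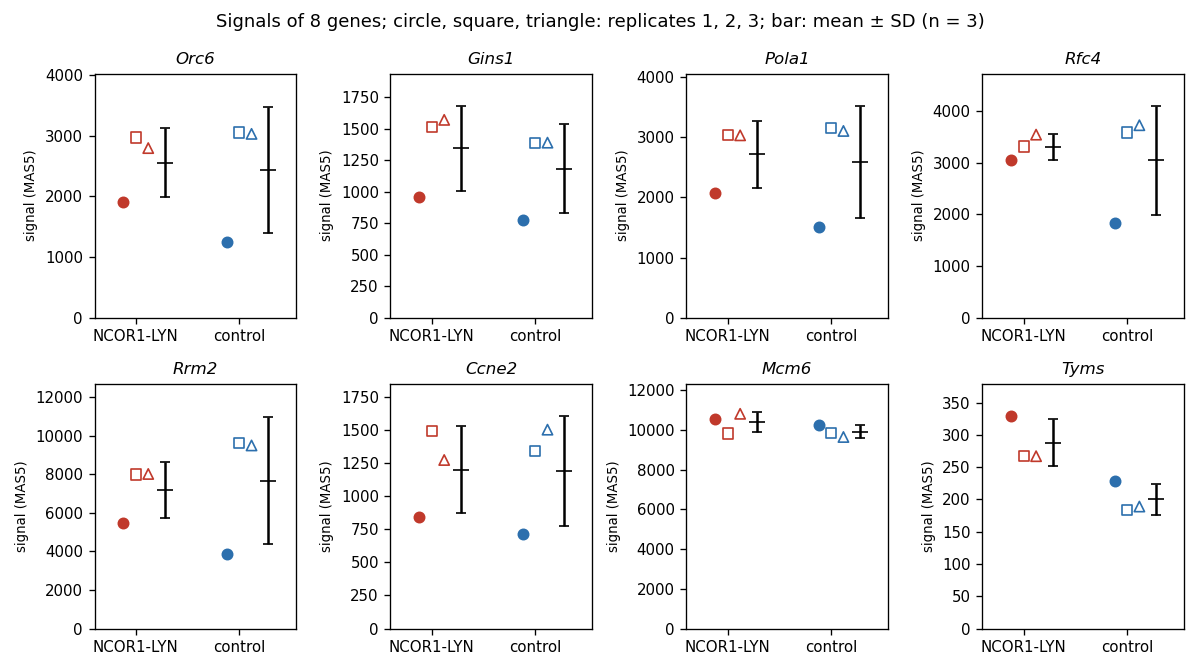
Signals (y axis, linear MAS5 signal from 0) of 8 genes in NCOR1-LYN and control cells, with replicates 1, 2 and 3 as filled circle, open square and open triangle and the mean ± SD (n = 3) as a black bar. In Orc6, Gins1, Pola1, Rfc4, Rrm2 and Ccne2 the filled circle is the lowest point of each group, in Mcm6 all points lie between 9650 and 10819, and in Tyms all NCOR1-LYN points lie above all control points.

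The replicate 1 difference was lower in control cells for most of the genes, with 1 replicate 1 array in each group. The counts of genes below therefore compare 1 array with 1 array, and genes read on the same arrays are not replicates. They also restate the pair differences above, which come from the same values. The median log2 difference of replicate 1 from the mean of replicates 2 and 3 was −0.19 within NCOR1-LYN cells and −0.49 within control cells, and in 29 of 34 genes the control value was the lower, against 5173 of all 10916 genes. The NCOR1-LYN minus control difference of pair 1 was tested against that of pairs 2 and 3. Of the 34 genes, 5 passed with a higher difference in pair 1 (14.7%, against 5.22% of all genes). With a lower difference 0 of 34 passed, against 741 of all 10916 genes. Of G2/M and mitosis genes 8 of 29 passed with a higher difference, with the control value the lower in 26. Of other replication genes 4 of 32 passed higher and 1, Rfc2, lower. The 5 genes were Rfc4 (0.81 ± 0.11), Rrm2 (0.75 ± 0.10), Cdc45 (0.72 ± 0.19), Orc6 (0.67 ± 0.11) and Pola1 (0.48 ± 0.11), with adjusted p between 0.00218 and 0.0423 in limma. Rfc4 had signals of 3045, 3314 and 3543 in NCOR1-LYN replicates 1, 2 and 3, against 1825, 3585 and 3725 in control replicates, so that the control 1 array alone stood far below the rest. This test shares its arrays with both comparisons above and had 2 residual degrees of freedom. Without an intensity trend in the variance 0 of the 5 passed, and the count was 3 without control 3 and 12 without NCOR1-LYN 3.

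**Figure D4:**
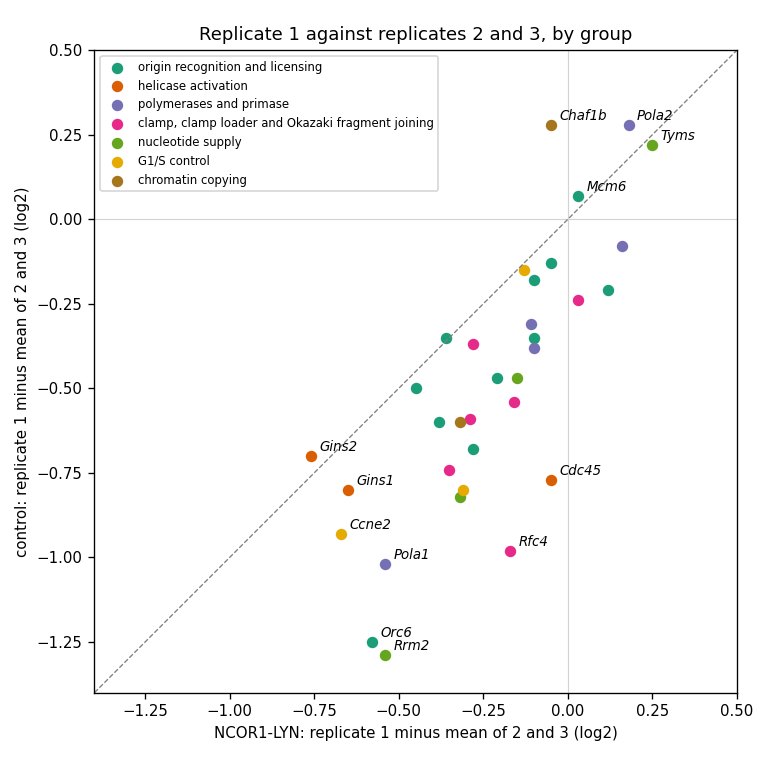
Log2 difference of replicate 1 from the mean of replicates 2 and 3 within NCOR1-LYN cells (x axis) and within control cells (y axis), 1 point per gene, coloured by role, with the dashed line marking equal values. Of 34 points, 29 lie below the line, Rrm2 (−0.54 and −1.29) and Orc6 (−0.58 and −1.25) lowest, while Gins2 (−0.76 and −0.70) lies close to it.

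Other genes of the cell cycle, taken from lists that do not overlap the 35, gave 0 calls in NCOR1-LYN against control cells when all arrays were used, with or without the replicate block. In replicate 1, 15 of 32 other replication genes were lower and 0 higher, led by the primase subunit gene Prim2 (−0.99 ± 0.09), the single-strand binding subunit gene Rpa3 (−0.77 ± 0.08), Dbf4, the activator of the CDC7 kinase (−0.77 ± 0.08), and Gmnn, which blocks relicensing (−0.65 ± 0.07). Of 15 tested nucleotide and chromatin genes of S phase, 7 were lower and 0 higher, led by the deoxycytidine kinase gene Dck (−1.03 ± 0.08) and the chromatin remodeller gene Hells (−1.0 ± 0.07). Of 29 tested G2/M and mitosis genes 19 were lower and 0 higher, with a median of −0.50, led by the survivin gene Birc5 (−0.79 ± 0.08) and the checkpoint kinase gene Bub1 (−0.77 ± 0.10). The 34 replication genes had a median of −0.35. Among all genes tested 15.0% were lower and 19.4% higher, with a median of 0.04. The difference between the lists was not tested.

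Of the 25 G1/S regulators, 7 were higher and 4 lower in replicate 1, with a median of 0.07. Among all genes tested 19.4% were higher and 15.0% lower, with a median of 0.04, so the list lay near all genes. Cdkn1a, which encodes the CDK inhibitor p21, had signals of 9705, 4046 and 4176 in NCOR1-LYN replicates 1, 2 and 3, against 10734, 5536 and 5190 in control replicates, a log2 difference of 1.11 ± 0.08. Both replicate 1 arrays lay far above the other 4. Tfdp2, which encodes a dimer partner of E2F factors, was also higher (0.88 ± 0.09), and Skp2, a ubiquitin ligase subunit that marks p27 for destruction, and the INK4 inhibitor gene Cdkn2d were lower (−0.74 ± 0.10 and −0.55 ± 0.08). Without both replicate 1 arrays, where 345 of all genes rose (3.16%) and 395 fell (3.62%) with NCOR1-LYN, 4 of the 25 regulators passed between NCOR1-LYN and control cells in limma, named here after their values were seen: Cdk6 (0.42) and Myc (0.41) were higher, and Cdkn1a (−0.38) and the cyclin D3 gene Ccnd3 (−0.36) lower. In the same fit Rfc2 (0.47) and Dck (0.29) were higher, and the mitotic genes Kif20a (−0.35) and Aurka (−0.25) lower, the calls of the other lists.

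**Figure D5:**
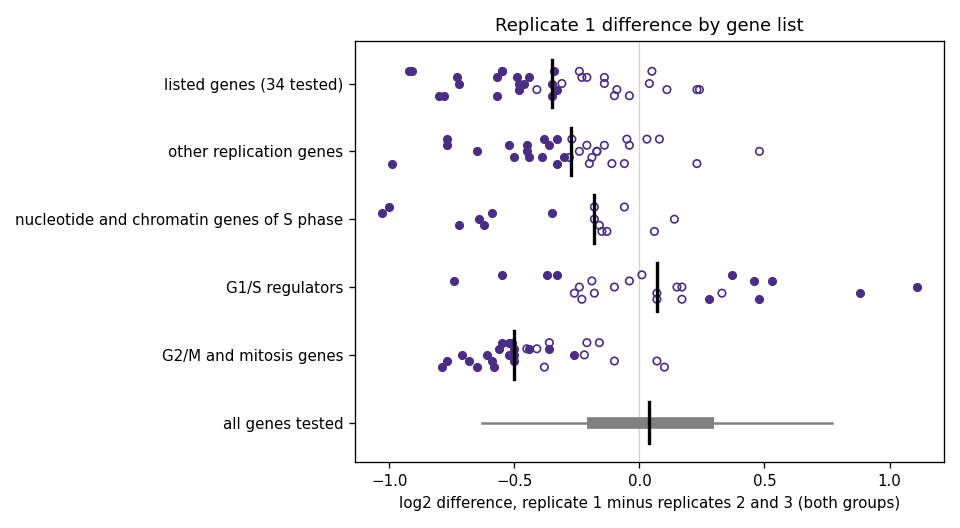
Log2 difference of replicate 1 from replicates 2 and 3, both groups together (x axis), for the listed genes and for the other lists (1 point per gene, filled where the adjusted p was under 0.05, black line at the median). The bottom row gives all genes tested as the 25th to 75th percentile (thick, −0.21 to 0.30) and the 5th to 95th (thin, −0.63 to 0.77). Medians of −0.35 for the listed genes, −0.27 for other replication genes and −0.50 for G2/M and mitosis genes lie left of the thick bar.

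Measures of RNA quality and of other cell types also differed between replicate 1 and replicates 2 and 3, though not all in the same direction in both groups. The mast cell and basophil sum was lower in replicate 1 of NCOR1-LYN cells and higher in replicate 1 of control cells. What part these measures had in the replicate 1 difference was not tested. The ratio of signal at the 3′ to the 5′ end of the beta-actin control was 1.15, 1.19 and 1.23 in NCOR1-LYN replicates 1, 2 and 3, against 1.17, 1.23 and 1.24 in control replicates, and that of Gapdh was 0.681, 0.74 and 0.713, against 0.685, 0.703 and 0.742. Both ratios were lowest in replicate 1 of each group, by small margins. The summed signal of 8 measured early myeloid and granulocyte markers was 6808, 9898 and 10232 in NCOR1-LYN replicates, against 2070, 2656 and 2606 in control replicates, a sum carried by Prtn3 and Ngp whose members did not move alike. Prtn3 had 1745, 4326 and 4782 in NCOR1-LYN replicates, against 1763, 932 and 891 in control replicates, and S100a9 was lower with NCOR1-LYN in pairs 2 and 3, and 3 of the 8 (Elane, Ctsg and S100a8) lay below the filter. The summed signal of 6 mast cell and basophil markers was 1878, 4574 and 3901 in NCOR1-LYN replicates, against 1855, 809 and 758 in control replicates, with Kit, Cpa3 and Mcpt8 below the filter. That sum was carried by Fcer1a, with 1596, 4386 and 3721 in NCOR1-LYN replicates, against 975, 388 and 341 in control replicates. Cma1 went the other way, with 80.5, 5.74 and 52.4 against 615, 190 and 186 in the same order. Ms4a2 had 142, 117 and 112, against 136, 146 and 158. Of the T and NK cell and the fibroblast markers, 4 of 5 in each list lay below the filter, with sums of 121 to 138 and 63.8 to 128 in NCOR1-LYN cells, against 143 to 197 and 100 to 193 in control cells.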

How the data were processed

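Biotin-labelled RNA of 6 samples was read on 1 Affymetrix array each. The deposited values are probe set signal intensities on a linear scale, which the authors obtained with MAS5 (per the submitters' processing notes; version not given in the sources used here), and every array has a mean of 500 after trimming 2% of probe sets at each end. Of 45101 probe sets, 34945 carried exactly 1 gene symbol. Signals were used as log2(signal + 64), each gene by its brightest probe set, leaving out the genes whose mean log2 value fell under the 40th percentile (a signal of about 47).

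Tests used limma 3.58.1 under R 4.3.3 (lmFit, eBayes with intensity trend, two-sided, Benjamini-Hochberg over 10916 genes, threshold 0.05). The fits were NCOR1-LYN against control, replicate 1 against 2 and 3 with group as covariate, and the interaction of both, with 4, 3 and 2 residual degrees of freedom. They were tested on simulated data whose noise was independent between arrays, unlike the deviations of same-numbered arrays here. Same-numbered arrays correlated in their deviations at 0.62, 0.41 and 0.44. Arrays were paired by number in the pair differences and in the replicate block, while the main NCOR1-LYN against control fit held no replicate term. NCOR1-LYN 2 gave 0.49 with control 3, above its own number, and NCOR1-LYN 3 gave 0.40 with control 2. The numbers 2 and 3 are therefore not told apart by these correlations. The 35 genes, lists, contrasts and named genes (all members, and of each other list up to 4 largest calls per comparison) were chosen with earlier results of these data known. Alternatives covered the offset, filter, quantile normalization, probe set choice, variance trend, array weights, the replicate block and leaving out arrays. The self-written promoter search used RefSeq sequences, read in Python 3.11.15.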

Additional observations from a re-analysis of the deposited data

Results flagged for a closer look

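By limma's test of the interaction, 5 of the 34 genes passed with a higher difference in pair 1 (14.7%, against 5.22% of all 10916 genes). For these genes the difference between replicate 1 and the other replicates was called unlike in the 2 groups. Each group has 1 replicate 1 array. The difference of NCOR1-LYN minus control in pair 1 exceeded that in pairs 2 and 3 by 0.81 for Rfc4, 0.75 for Rrm2, 0.72 for Cdc45, 0.67 for Orc6 and 0.48 for Pola1 on the log2 scale. Pair 1 itself had 0.72, 0.49, 0.58, 0.59 and 0.44 for these genes in the same order, and the fit without replicate 1 had −0.09, −0.26, −0.14, −0.08 and −0.04. Over the 11 alternatives of this test Rfc4, Rrm2 and Orc6 each passed in 10, Cdc45 in 7 and Pola1 in 6. Without an intensity trend in the variance 0 of the 5 passed. Cdc45 had a dim second probe set (mean signal 87.8) with 0.29 in replicate 1 against −0.41 in the brightest.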

How the results depend on the processing

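Between NCOR1-LYN and control cells 0 replication genes passed in the fit with all arrays and in 15 of 16 alternatives, the exception being 2 without both replicate 1 arrays. Over all genes that comparison gave 9 calls, and 1 with no filter or with a filter at the 60th percentile, 90 with the replicate block, 497 with array weights, 740 without both replicate 1 arrays and 0 to 15 when leaving out 1 array at a time, and the cause was not tested. The replicate block changed no call among the 34 genes. For replicate 1 against 2 and 3, 3756 genes passed, 2457 to 4567 with 1 array left out, and the replication genes called numbered 19, and 13 to 26 with 1 array left out. Mcm6 turned to −0.29 with the mean of all probe sets, where its second probe set enters. For the interaction, 1311 genes passed, 496 without the filter and 78 without an intensity trend, and of the replication genes 5 passed, 3 without the filter, 8 with quantile normalization, 0 without a trend and 3 to 12 with 1 array left out. With 3 arrays in each group, small differences of dim probe sets such as those of Tyms were not resolved.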
